A study of Mus musculus with 15 samples.

Results

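The nuclear genes of oxidative phosphorylation were followed through whole skin treated with 2 blistering agents and an HSP90 inhibitor. A gene was a member if its symbol began with Nduf followed by a, b, c, s or v, with Uqcr, with Cox and a digit from 4 to 8, or with Atp5, or was Sdha, Sdhb, Sdhc or Sdhd. Symbols of pseudogenes ending in -ps were left out, and at least 10 counts over the 15 libraries were required. The pattern matched 107 genes, of which 9 were such pseudogenes and 6 had fewer counts, leaving 92 members of 53700 gene entries. They comprised 37 complex I subunits, 8 complex I assembly factors of the Ndufaf type, 4 complex II, 8 complex III, 18 complex IV and 17 complex V genes. Ndufa4 and Ndufa4l2 were counted with complex IV, where the Ndufa4 protein is found. Of the 92, 91 passed the low-count filter of the test and Ndufa11b did not. Ndufa11b is counted with the complex I subunits but is annotated as a processed pseudogene (GENCODE M21).

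Dorsal skin of male SKH-1 (hairless) mice was sampled at 24 h in 5 groups of 3 libraries. Controls received ethanol, the PAO group phenylarsine oxide at 100 µg per mouse, and the CEES group 2-chloroethyl ethyl sulfide, an analog of sulfur mustard, at 2 mg per mouse. In the SNX-5422+PAO and SNX-5422+CEES groups, the HSP90 inhibitor SNX-5422 followed topically after 15 min at 20 mg/kg. No group used here had SNX-5422 without an agent, and no age of the mice is stated in the labels. The labels do not state that each library is a separate mouse, so the p-values measure the spread between libraries, which may be technical.

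Oxidative phosphorylation couples electron transport from NADH and succinate to oxygen with proton pumping, and the gradient drives ATP synthesis. Complexes I and II feed electrons to ubiquinone, complex III passes them to cytochrome c, complex IV reduces oxygen and complex V makes ATP. Most subunits are nuclear-encoded and used by every cell, but complex IV swaps some of its subunits by tissue. Cox6a2, Cox7a1 and Cox8b encode forms made in heart and skeletal muscle, and Cox6a1, Cox7a2 and Cox8a encode the forms of most other tissues. Whole dorsal skin of mice includes a thin muscle sheet, and muscle is rich in mitochondria.

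Libraries held about 16838200 to 28887400 counts on genes. The keratinocyte genes Krt5 and Krt14 had mean levels of 2419.7 to 4134.8 CPM (counts scaled to a common, TMM-adjusted depth) in the 5 groups, and transcripts of other tissues were present in every group. The summed level of 17 skeletal muscle markers was 62414 to 115399 CPM for control, 32888 to 36416 for CEES, 93791 to 100173 for PAO, 61631 to 85425 for SNX-5422+CEES and 126869 to 142383 for SNX-5422+PAO libraries. All 17 were detected in every group. Summed levels of 6 pancreas markers, including insulin genes, averaged 1370 CPM in control, 1258 in PAO and 1801 in SNX-5422+PAO but 10.2 in CEES and 70.6 in SNX-5422+CEES. Mitochondrial ribosomal RNA (mt-Rnr1 and mt-Rnr2) took 6.63 to 8.23% of control, 9.69 to 17.7% of PAO, 12.3 to 17.4% of SNX-5422+PAO, 5.72 to 9.43% of CEES and 8.20 to 9.08% of SNX-5422+CEES gene counts. Relative to control, CEES libraries had 5 of 5 fibroblast, 6 of 6 myeloid and 3 of 3 endothelial markers raised, and PAO libraries 4 of 5, 6 of 6 and 1 of 3. Fat markers were raised in 3 of 6 cases after CEES and lowered in 4 of 6 after PAO, smooth muscle markers were lowered in 0 of 3 and 2 of 3, and keratinocyte markers in 2 of 5 in both. All 6 pancreas markers were lowered after CEES and 0 of 6 after PAO. The library codes in the sample titles run from 1 to 3 (control), 4 to 6 (PAO), 7 to 9 (PAO with SNX-5422), 13 to 15 (CEES) and 16 to 18 (CEES with SNX-5422). Any handling in that order cannot be told apart from treatment. In bulk tissue, fewer cells of a type and less RNA per cell cannot be told apart either.

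The promoters of the muscle and ubiquitous forms are shown first, since the results turn on that contrast. Sequences are from RefSeq (GRCm38.p6) and run from 250 bases before to 30 bases after the annotated start. Of the 92 members, 73 matched a promoter there, and Cox6a2 was not among them. Capitals mark matches, on either strand, to the E-box CANNTG (bound by myogenic factors such as MyoD) and the ETS core CCGGAA. They also mark the core of nuclear respiratory factor 1 (NRF1, with GCGC, any 2 bases, GCGC), the cyclic AMP element TGACGTCA and the TATA box TATAAA. A last pattern (CTA, any 4 bases, TAG) is looser than the MEF2 element, which has A or T at those 4 bases. No matches to different motifs overlapped in these 4 windows. The files themselves use GRCm39. The Cox8b window is chr7:140900417-140900696, minus strand, Cox7a1 at chr7:30183921-30184200, plus strand, Cox8a at chr19:7217587-7217866, minus strand and Cox6a1 at chr5:115348929-115349208, minus strand.
Cox8b: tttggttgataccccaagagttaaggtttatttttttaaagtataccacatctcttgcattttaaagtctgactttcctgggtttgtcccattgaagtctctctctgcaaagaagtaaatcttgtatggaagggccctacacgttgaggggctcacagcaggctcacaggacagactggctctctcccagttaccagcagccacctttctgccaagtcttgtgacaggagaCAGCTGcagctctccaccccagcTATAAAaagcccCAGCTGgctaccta
Cox7a1: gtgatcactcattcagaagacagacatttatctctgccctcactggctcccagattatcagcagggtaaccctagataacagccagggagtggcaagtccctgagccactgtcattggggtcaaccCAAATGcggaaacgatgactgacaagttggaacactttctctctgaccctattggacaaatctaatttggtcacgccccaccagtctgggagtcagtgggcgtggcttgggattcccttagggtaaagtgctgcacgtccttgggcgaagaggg
Cox8a: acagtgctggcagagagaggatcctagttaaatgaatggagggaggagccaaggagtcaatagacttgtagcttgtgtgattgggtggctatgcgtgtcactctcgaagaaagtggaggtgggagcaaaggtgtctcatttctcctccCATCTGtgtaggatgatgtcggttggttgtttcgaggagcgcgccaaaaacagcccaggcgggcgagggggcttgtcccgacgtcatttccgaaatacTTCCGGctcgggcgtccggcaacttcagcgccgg
Cox6a1: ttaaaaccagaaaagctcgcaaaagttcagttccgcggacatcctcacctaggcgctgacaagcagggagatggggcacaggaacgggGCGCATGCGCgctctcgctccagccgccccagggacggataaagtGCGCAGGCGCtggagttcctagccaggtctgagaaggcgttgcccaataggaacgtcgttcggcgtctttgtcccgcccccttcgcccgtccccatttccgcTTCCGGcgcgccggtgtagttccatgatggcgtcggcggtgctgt
The Cox8b window held 2 E-boxes and 1 TATA box, and the Cox7a1 window 1 E-box. Cox8a had 1 ETS core and 1 E-box, and Cox6a1 had 2 NRF1 cores and 1 ETS core. NRF1 cores were found in 26.0% of the 73 member windows and in 6.05% of all 27025 windows of that length. ETS cores were found in 37.0% of member windows against 14.5% of all, and E-boxes in 71.2% against 70.0%. The loose MEF2 pattern was in 2.74% against 3.53%, the cyclic AMP element in 5.48% against 1.83% and the TATA box in 8.22% against 13.7%. A match is a description of letters and no evidence of binding.

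The muscle forms of complex IV were lower after CEES than in control, while their ubiquitous partners were at similar levels (the plot of isoforms by library). Cox6a2 was at 34.7, 46.4 and 38.2 CPM in control and at 17.3, 22.4 and 19.0 CPM in CEES libraries. No CEES library reached the lowest control, and Cox6a2 fell by 1.02 ± 0.14 (log2, SE; edgeR quasi-likelihood, Benjamini-Hochberg adjusted p = 4.9e-05 over 22529 genes). Cox8b had 19.1, 29.0 and 24.4 CPM in control against 14.2, 12.6 and 12.2 CPM after CEES. It fell by 0.90 ± 0.17 (edgeR adjusted p = 0.000754), again without overlap. Cox7a1 had 9.95, 18.0 and 13.1 CPM in control against 8.30, 7.55 and 8.83 CPM after CEES. Its fall of 0.74 ± 0.22 (edgeR adjusted p = 0.0144) was lost without control library 2 or CEES library 2. Cox6a1 was at 40.2 ± 5.6 CPM in control and 39.3 ± 6.8 CPM after CEES (SD, n = 3), Cox8a at 38.4 ± 3.6 and 37.6 ± 2.8 CPM, and Cox7a2 at 21.98 ± 7.02 and 25.7 ± 3.6 CPM. None of these 3 passed the test (edgeR adjusted p = 0.867, 0.855 and 0.429).

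**Figure D1:**
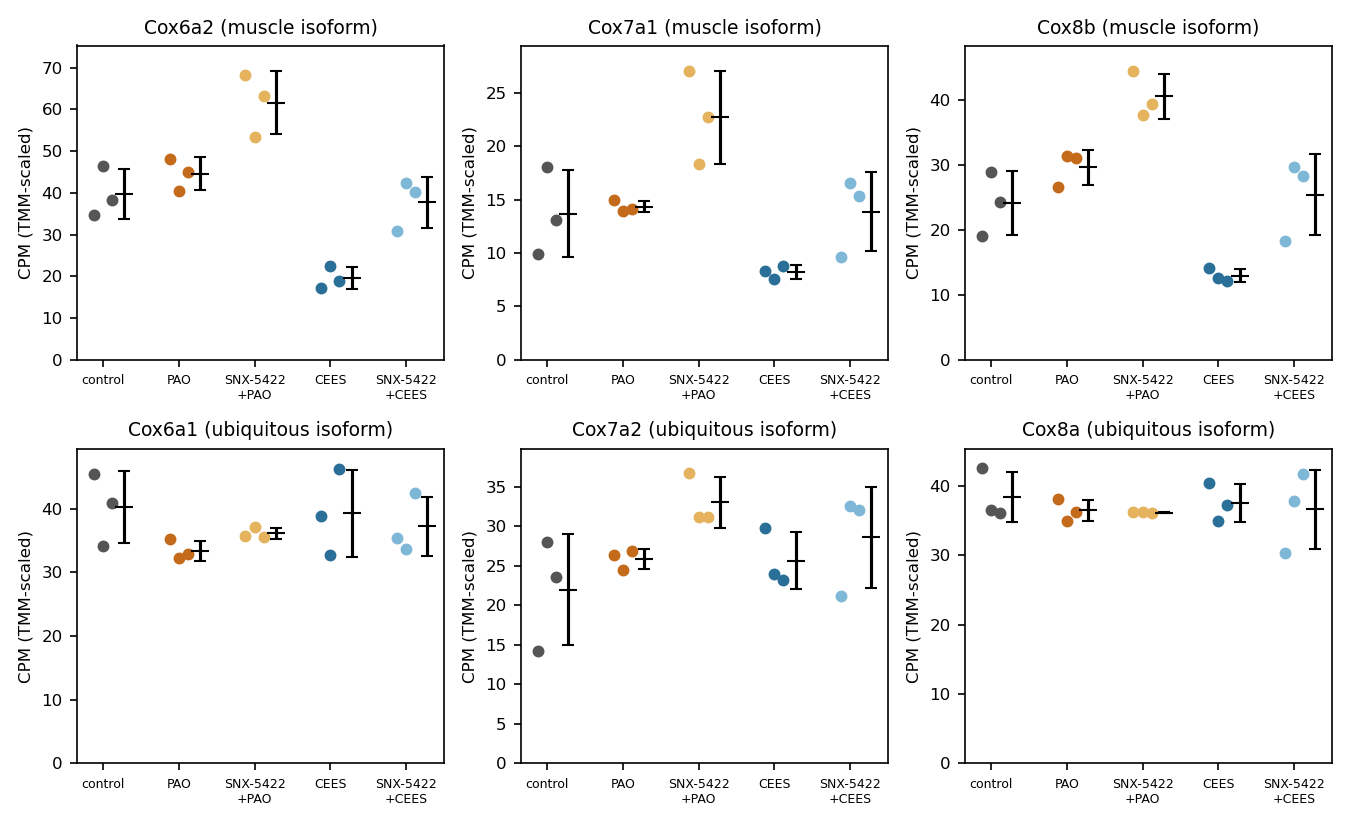
TMM-scaled CPM of 3 muscle forms (top) and 3 ubiquitous forms (bottom) of complex IV subunits, each point a library, with the group mean and SD as bars (n = 3). The muscle forms are lowest in the CEES and highest in the SNX-5422+PAO libraries. Cox6a1 and Cox8a stay between 30.4 and 46.3 CPM in the 15 libraries. Cox7a2 has means of 23.3 CPM per kilobase of exon in control and 35.0 in SNX-5422+PAO, a difference that did not pass the test.

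SNX-5422 given after CEES went with higher levels of the same 3 muscle forms. Cox6a2 was at 30.7, 42.3 and 40.1 CPM in SNX-5422+CEES libraries, a rise of 0.95 ± 0.14 over CEES (edgeR adjusted p = 0.00143). Cox8b was at 18.3, 29.7 and 28.3 CPM and rose by 0.97 ± 0.17 (edgeR adjusted p = 0.00322). Cox7a1 was at 9.64, 16.6 and 15.4 CPM and rose by 0.75 ± 0.21 (edgeR adjusted p = 0.0445), a call lost when any of 10 libraries was left out, SNX-5422+CEES libraries 2 and 3 among them. Against control, none of the 3 passed the test (edgeR adjusted p = 0.744, 0.795 and 0.966).

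The muscle markers moved beside these genes. Of the 17, 14 were lowered after CEES with a median log2 change of -1.20, and 15 were raised from CEES to SNX-5422+CEES with a median of 1.02. Titin (Ttn) changed by -1.40 and 1.13 and muscle creatine kinase (Ckm) by -1.28 and 1.21. With the muscle level as a covariate, none of the 3 forms passed the test in either comparison. After CEES, Cox6a2 was then at a log2 change of -0.37, Cox8b at 0.16 and Cox7a1 at 0.67. From CEES to SNX-5422+CEES the values were 0.38, 0.05 and -0.45. CEES libraries share no muscle level with control or SNX-5422+CEES libraries, so this fit reaches beyond levels that the groups share. Pancreas markers were also raised in 3 of 6 cases and keratinocyte markers in 2 of 5 from CEES to SNX-5422+CEES, and myeloid markers lowered in 2 of 6 and fat markers in 1 of 6. Their part in the result was not tested.

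Ratios of a muscle form to its partner within a library do not depend on scaling. The Cox6a2 to Cox6a1 log2 ratio was -0.02 ± 0.42 (SD) in control, -0.998 ± 0.40 in CEES and 0.41 ± 0.08 in PAO. With SNX-5422 added it was 0.01 ± 0.28 after CEES and 0.76 ± 0.21 after PAO. The Cox8b to Cox8a ratio was lowest in CEES (-1.53 ± 0.07), then control (-0.69 ± 0.42), SNX-5422+CEES (-0.54 ± 0.19), PAO (-0.30 ± 0.19) and SNX-5422+PAO (0.16 ± 0.12), and control overlapped with SNX-5422+CEES and PAO. For Cox7a1 to Cox7a2, SNX-5422+PAO was at -0.55 ± 0.18, control at -0.67 ± 0.17 and PAO at -0.85 ± 0.07. SNX-5422+CEES (-1.06 ± 0.08) and CEES (-1.63 ± 0.23) followed, and SNX-5422+CEES also lay below control. SNX-5422+PAO and control overlapped in this pair (exact permutation p = 0.5). In the Cox6a2 and Cox8b pairs SNX-5422+PAO lay above control without overlap (exact permutation p = 0.1). In each of these 3 pairs the CEES ratios lay below the control, PAO and SNX-5422+CEES ratios without overlap, each with an exact two-sided permutation p of 0.1, the smallest that 3 against 3 allows (adjusted p = 0.183 over 42 tests). PAO and control ratios overlapped in these 3 pairs.

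Other paired forms did not follow one pattern. Ndufa4l2, a homologue of Ndufa4 known as a target of the hypoxia factor HIF1, was at 23.8, 21.3 and 26.0 CPM in control and 11.5, 8.48 and 12.4 CPM in CEES libraries. It fell by 1.14 ± 0.28 after CEES (edgeR adjusted p = 0.00481) and was at 14.0, 27.7 and 25.9 CPM in SNX-5422+CEES, a rise of 1.06 ± 0.28 over CEES (edgeR adjusted p = 0.0297). That rise was lost without any single CEES library or without SNX-5422+CEES library 2 or 3. In SNX-5422+PAO libraries it was at 19.4, 7.36 and 15.0 CPM, against 17.7, 15.7 and 19.3 in PAO, so unlike the muscle forms it was not highest there. Ndufa4 itself ranged from 43.6 to 77.6 CPM over the 15 libraries and passed no test. Cox4i2, the lung form of subunit 4, was at 0.135 to 1.18 CPM and Cox6b2, the testis form of subunit 6b, at 0.50 to 1.82 CPM, with 2 to 29 and 9 to 36 counts a library. Their ratios to Cox4i1 and Cox6b1 lay below control without overlap in SNX-5422+PAO for Cox4i2, and in PAO and SNX-5422+CEES for Cox6b2 (exact permutation p = 0.1, adjusted p = 0.183 over 42 tests). The Ndufa4l2 to Ndufa4 ratio lay below control without overlap in CEES and SNX-5422+PAO, with the same p. Cox7b2 had 0 counts over the 15 libraries.

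Beyond the isoforms, CEES lowered few members. Of 91 tested, 12 were lowered (13.2%), against 16.2% of all genes tested, and 0 were raised, against 17.8% of all genes (0 raised at an unadjusted p under 0.05 and 0 with DESeq2). The members' median was -0.05, against -0.04 over all genes. Complex IV held 5 of the 12: Ndufa4l2, the 3 muscle forms and Cox5b. Complex I held 6, complex V 1, and complexes II and III and the assembly factors 0 (0 in these 3 classes at an unadjusted p under 0.05). Ndufb10, an accessory subunit of the membrane arm of complex I, was at 29.9, 33.97 and 30.9 CPM in control and 21.8, 17.9 and 22.4 after CEES, and fell by 0.61 ± 0.11 (edgeR adjusted p = 0.000367). Cox5b, a subunit of complex IV shared by all tissues, was at 44.5, 47.9 and 49.1 CPM in control and 33.3, 37.0 and 32.9 after CEES, and fell by 0.46 ± 0.11 (edgeR adjusted p = 0.00523). Neither gene's groups overlapped. Ndufa12 and Ndufs7 of complex I fell by 0.43 and 0.41, and Atp5g2, a gene for the c ring of ATP synthase, by 0.38, but each lost its call without CEES library 3 (Ndufa12), control library 2 or CEES library 1 or 2 (Ndufs7), or control library 2 or 3 or CEES library 1 or 3 (Atp5g2). Without control library 2, which had the highest muscle level of its group, 6 members were lowered and 1 raised. The count lowered was 21 with upper-quartile scaling, 6 with total counts and 0 with the muscle covariate, under which 36 were raised. The core genes Ndufs1, Ndufv1, Sdha, Sdhb, Uqcrc1, Uqcrfs1, Cox5a, Atp5a1 and Atp5b did not pass the test after CEES, with log2 changes between -0.14 and 0.05.

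From CEES to SNX-5422+CEES, 7 members were raised (7.69%, against 3.54% of all genes) and 0 lowered (3.46% of all genes; 0 at an unadjusted p under 0.05 and 0 with DESeq2). They were the 3 muscle forms, Ndufa4l2, Cox5b, Ndufa12 and Atp5j, the F6 subunit of ATP synthase. Of the 7, 6 were among the 12 lowered by CEES; both comparisons use the CEES libraries. Cox5b was at 40.0, 53.9 and 46.03 CPM in SNX-5422+CEES and rose by 0.44 ± 0.11 (edgeR adjusted p = 0.0268). That call was lost without CEES 1 or 3, SNX-5422+CEES 2 or 3 or SNX-5422+PAO 3. The count was 2 without CEES library 1 or 3 or SNX-5422+CEES library 2 or 3, and 4 without CEES library 2, PAO library 3 or SNX-5422+PAO library 3. Cox6a2 and Cox8b remained called with each library left out. The count was 3 with total counts and 0 with the muscle covariate, under which 10 were lowered. Against control, SNX-5422+CEES had 1 member raised (13.1% of all genes) and 1 lowered (9.25%). Cox7b, a complex IV subunit, rose by 0.39 and Ndufb10 fell by 0.36. Each call was lost with some library left out, and without control library 2 there were 11 raised.

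PAO alone changed 2 members, 1 raised and 1 lowered, against 11.9% raised and 8.58% lowered over all genes. Atp5l, subunit g of ATP synthase, was at 21.5, 19.9 and 20.4 CPM in control and 15.9, 15.7 and 17.6 after PAO, and fell by 0.33 ± 0.10 (edgeR adjusted p = 0.0298). Its call was lost without control library 1 or 3 or PAO library 1 or 2, and the count of raised members was 0 without control library 1 or 3 or PAO library 1 or 3. The fold changes of 78 of 91 members were above 0, with a median of 0.22 against -0.0040 over all genes, and 20 of 91 were raised at an unadjusted p under 0.05, against 18.2% of all genes. Among controls, library 1 was lowest of its group for 78 of 92 members and control 2 highest for 78. Without control 2, 30 members were called raised after PAO. With scaling to total counts 0 were called raised and 2 lowered, and the members' median was 0.03, against -0.21 over all genes.

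In SNX-5422+PAO skin the genes of complexes I to V were largely higher than in control (the plot of fold changes by complex). Of 91 members, 62 were raised (68.1%), against 10.7% of all genes tested, and 0 lowered, against 8.66% (1 lowered at an unadjusted p under 0.05 and 1 with DESeq2). The members' median log2 change was 0.52, against 0.01 over all genes. Raised members were 4 of 4 in complex II, 7 of 8 in complex III, 26 of 36 complex I subunits, 11 of 17 in complex V, 10 of 18 in complex IV and 4 of 8 assembly factors. The medians ran from 0.71 in complex II to 0.39 in complex IV, whose unraised genes included Cox6a1, Cox7a2, Cox8a, Ndufa4l2 and Cox4i2. Cox4i1, Cox5b, Cox6b1 and Cox7b were raised there, as were the muscle forms. With total-count scaling 9 were raised and 4 lowered, and the medians were 0.19 for members and -0.33 for all genes. The count raised was 27 with only the libraries of these groups in the fit and 2 with the share of mitochondrial ribosomal RNA as a covariate. That share was 6.63 to 8.23% in control and 12.3 to 17.4% in SNX-5422+PAO, without overlap, and its part in the result was not tested further. Between 20 and 68 were raised with a library left out: 20 without SNX-5422+PAO 1, 23 without control 1, 29 without control 3 and 31 without SNX-5422+PAO 3.

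**Figure D2:**
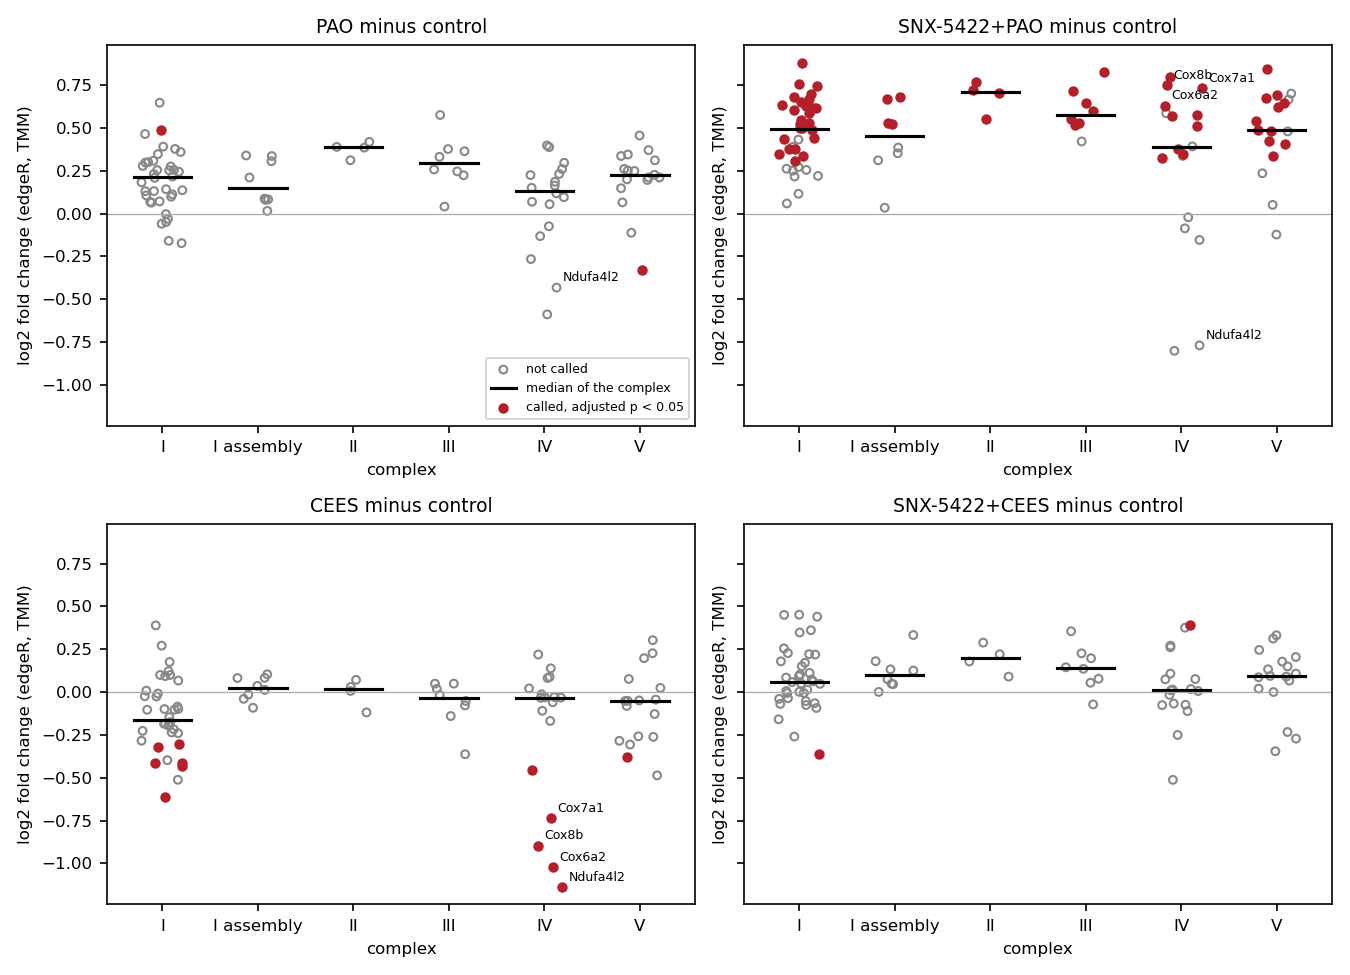
Log2 fold changes (edgeR, TMM-scaled) of the 91 tested members by complex in 4 comparisons with control, with members called at an adjusted p under 0.05 filled in red and a bar at each complex's median. In the SNX-5422+PAO panel 62 members are filled and above 0, and in the CEES panel the muscle forms and Ndufa4l2 sit apart below the others.

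Complex II, which oxidises succinate, rose as a whole. Its flavoprotein gene Sdha was at 109, 186 and 135 CPM in control and 228, 194 and 207 in SNX-5422+PAO, a rise of 0.55 ± 0.14 (edgeR adjusted p = 0.0138). The iron-sulfur subunit Sdhb was at 39.2, 60.1 and 54.2 CPM in control and 93.0, 75.7 and 81.9 in SNX-5422+PAO. It rose by 0.71 ± 0.13 (edgeR adjusted p = 0.00195). The membrane anchors Sdhc and Sdhd rose by 0.72 and 0.77. Sdhb and Sdhd stayed called with each library left out, Sdha was lost without control 1 or 3 or SNX-5422+PAO 1, and Sdhc without SNX-5422+PAO 1.

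In complex III, the core protein Uqcrc2 was at 49.1, 78.1 and 64.2 CPM in control and 116, 98.1 and 99.5 in SNX-5422+PAO, and rose by 0.71 ± 0.13 (edgeR adjusted p = 0.00167). Uqcrfs1, the Rieske iron-sulfur protein, rose by 0.83, Uqcr10 by 0.65 and Uqcrc1 by 0.53. The Uqcrfs1 call was lost without control 3 or SNX-5422+PAO 1. In complex I, Ndufs1, the largest core subunit, was at 70.1, 105 and 83.4 CPM in control and 131, 124 and 123 in SNX-5422+PAO, and rose by 0.55 ± 0.11 (edgeR adjusted p = 0.0031). The NADH-binding subunit Ndufv1 rose by 0.61. The accessory subunits Ndufa2 and Ndufa5 rose by 0.88 and 0.76, but these 2 and Ndufv1 each lost their call without control 1 or 3 or SNX-5422+PAO 1 or 3, and Ndufa2 also without PAO 3 or SNX-5422+PAO 2. The assembly factors Ndufaf5, Ndufaf4 and Ndufaf1 rose by 0.68, 0.67 and 0.53, and of these Ndufaf4 was lost without SNX-5422+PAO 1 and Ndufaf1 without control 1 or SNX-5422+PAO 2.

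In complex IV, Cox5a was at 10.2, 18.2 and 15.5 CPM in control and 25.4, 24.5 and 26.6 in SNX-5422+PAO, without overlap, and rose by 0.80 ± 0.17 (edgeR adjusted p = 0.00363). The muscle forms were at their highest here, Cox6a2 at 68.2, 53.3 and 63.2 CPM, Cox8b at 44.5, 37.8 and 39.5 and Cox7a1 at 27.0, 18.4 and 22.8. They rose over control by 0.63, 0.75 and 0.73 (edgeR adjusted p = 0.00571, 0.00576 and 0.023). The Cox7a1 call was lost without control 1 or 3 or SNX-5422+PAO 1 or 3. Cox7b rose by 0.58, Cox4i1 by 0.57, Cox6b1 by 0.38 and Cox5b by 0.35 (edgeR adjusted p = 0.00563, 0.0339, 0.019 and 0.0409). Cox7b stayed called with each library left out, and Cox6b1 was lost without control 1 or 3 or SNX-5422+PAO 1 or 3. Cox4i1 and Cox5b were lost without control 1 or 3, among other libraries. In complex V, the catalytic beta subunit Atp5b was at 503, 731 and 572 CPM in control and 959, 804 and 867 in SNX-5422+PAO, and rose by 0.54 ± 0.12 (edgeR adjusted p = 0.00681). The alpha subunit Atp5a1 rose by 0.62, and Atp5g3, a c-ring gene, by 0.84. Another c-ring gene, Atp5g1, rose by 0.64 (edgeR adjusted p = 0.00166) and stayed called with each library left out. Leaving out SNX-5422+PAO 1 ended the calls of Atp5a1 and Atp5g3, and leaving out control 1 or 3 that of Atp5g3.

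SNX-5422+PAO 1 was the highest library of its group for 66 of 92 members. It also had the highest muscle markers (142383 CPM) and Ppargc1a of its group, and its lowest mitochondrial ribosomal RNA (12.3%). Of the 17 muscle markers, 11 were raised over control in SNX-5422+PAO. Myh7, the myosin of slow muscle fibres, was at 82.2, 11.8 and 34.3 CPM in SNX-5422+PAO and at 0 to 0.186 CPM in the control and PAO libraries. The largest log2 rise over control among the 17 markers was 8.05 in SNX-5422+PAO and 3.76 in SNX-5422+CEES. Smooth muscle markers fell in 3 of 3 cases, fat markers in 2 of 6 and keratinocyte markers in 2 of 5, and myeloid markers rose in 4 of 6. With the muscle covariate 0 of 91 members were raised. Summed muscle markers of SNX-5422+PAO and control do not overlap in TMM-scaled CPM, the scale of that covariate, but do as shares of gene counts (10.4 to 12.2% against 6.93 to 11.5%). The part of the other tissues was not tested.

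**Figure D3:**
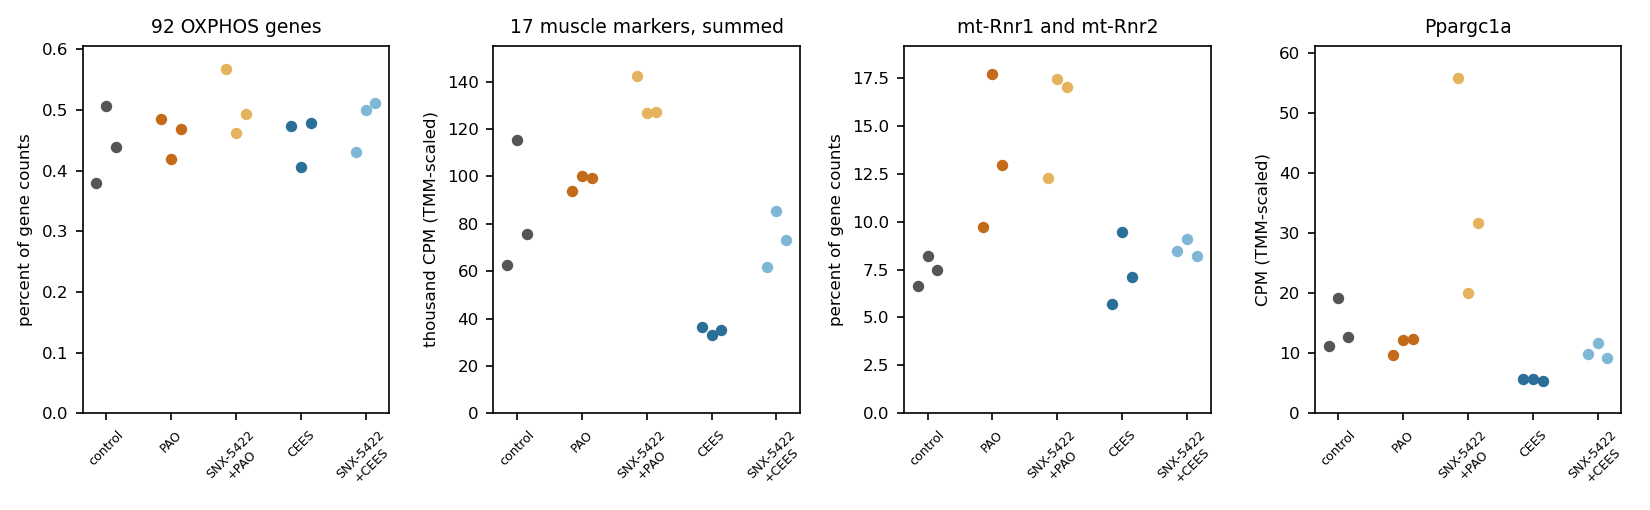
Per library, the share of gene counts taken by the 92 members, the summed CPM of 17 muscle markers, the share taken by mitochondrial ribosomal RNA and the CPM of Ppargc1a, each point a library. Muscle markers are lowest in the CEES libraries (32888 to 36416 CPM) and highest in SNX-5422+PAO (126869 to 142383 CPM), while the members take 0.380 to 0.568% of gene counts.

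Set against PAO rather than control, SNX-5422+PAO had 4 members raised (4.40%, against 2.57% of all genes) and 0 lowered (3.39% of all genes; 0 at an unadjusted p under 0.05 and 0 with DESeq2). Cox7b rose by 0.48, Uqcrc2 by 0.47, and Ndufs1 and Ndufb10 by 0.40 each (edgeR adjusted p between 0.0376 and 0.0485). The fold changes of 87 of 91 were above 0, with a median of 0.27 against -0.01 over all genes. None of the 4 calls held with each library left out, and 0 members were raised without any single PAO library. The count was 0 with total counts, 1 with the ribosomal RNA covariate, 0 with the muscle covariate, 11 without a filter, 9 with DESeq2 and 19 with only the libraries of these groups. Of the markers, 6 of 17 for muscle were raised, and 2 of 5 for fibroblasts and 2 of 6 for myeloid cells lowered. Both comparisons use the SNX-5422+PAO libraries.

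The agents were compared directly. From PAO to CEES, 22 members were lowered (24.2%, against 9.02% of all genes) and 0 raised (9.86% of all genes; 0 at an unadjusted p under 0.05 and 0 with DESeq2), with a median of -0.30 against -0.01. With total-count scaling 2 were lowered and 3 raised, while the median over all genes shifted by 0.32. Cox8b and Cox6a2 fell by 1.19 each and Cox7a1 by 0.81 (edgeR adjusted p = 0.000204, 4.72e-05 and 0.016), and PAO and CEES libraries did not overlap for these. Cox5b fell by 0.61, Atp5g1 by 0.57 and Ndufb10 by 0.56, and each stayed called with each library left out. The core genes Sdha and Uqcrc1 fell by 0.43 and 0.40, and both calls were lost without any single PAO or CEES library. Cox7a1 lost its call without PAO 3 or CEES 2. The count was 8 without PAO 1, 10 without PAO 3, 11 without CEES 2, 12 without CEES 1, 13 without PAO 2, and 14 without CEES 3 or SNX-5422+PAO 3. The count was 4 with the ribosomal RNA covariate and 38 with only the libraries of these groups. With the muscle covariate 0 were lowered and 13 raised. Cox8b, Cox7a1 and Cox6a2 were then at log2 changes of 0.0648, 0.84 and -0.41, none past the test. CEES and PAO libraries share no muscle level (32888 to 36416 against 93791 to 100173 CPM), so that fit reaches beyond levels that the groups share. Muscle markers were lowered in 14 of 17 cases and pancreas markers in 6 of 6. Raised were 6 of 6 fat, 5 of 5 fibroblast, 3 of 6 myeloid, 2 of 3 endothelial, 2 of 3 smooth muscle and 2 of 5 keratinocyte markers. The part of these tissues was not tested further.

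The effect of SNX-5422 after CEES did not differ from its effect after PAO for any member at an adjusted p under 0.05 (edgeR; over all genes 0.550% were raised and 0.186% lowered). At an unadjusted p under 0.05, 3 of 91 members had a higher effect after CEES and 0 a lower one, against 7.94% and 5.27% of all genes. With the muscle covariate 12 members were called. The largest difference was that of Ndufa4l2, 1.40 on the log2 scale (edgeR adjusted p = 0.110). DESeq2 called Ndufa4l2 alone, with an adjusted p of 0.0231, and so did edgeR without the low-count filter (adjusted p = 0.000284).

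**Figure D4:**
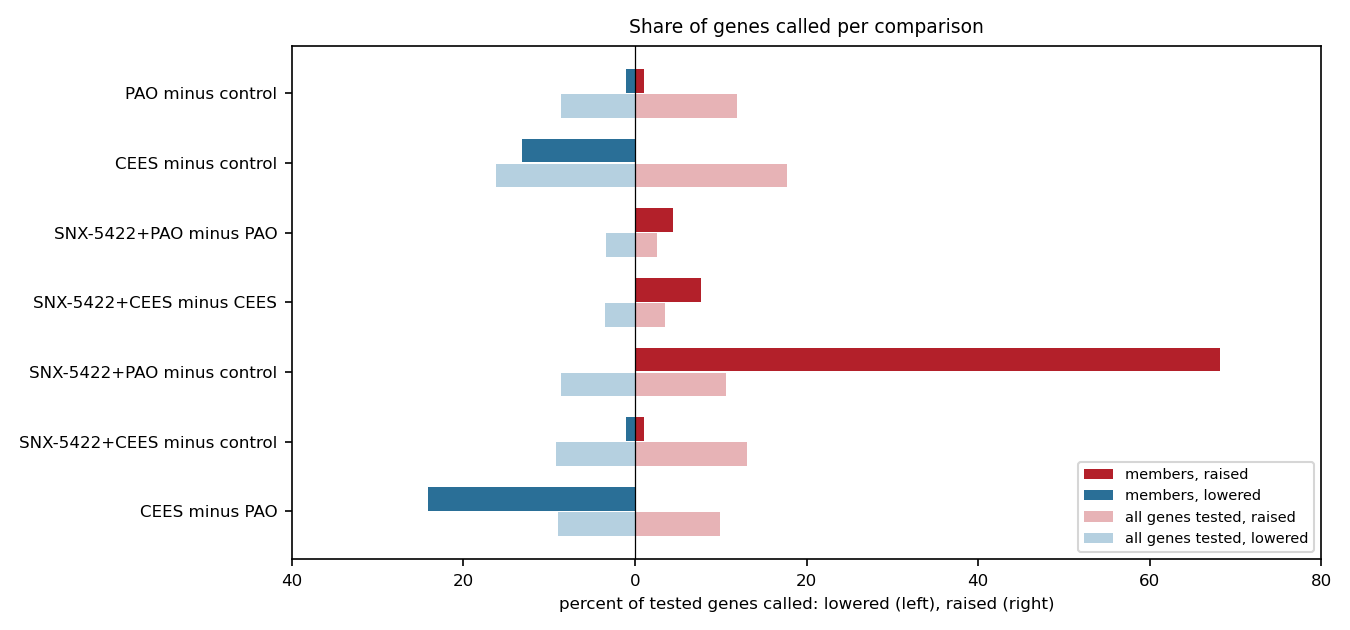
Percent of tested genes called raised (right) or lowered (left) at an edgeR adjusted p under 0.05 in 7 comparisons, for the 91 members (dark bars) and all 22529 genes (pale bars). The SNX-5422+PAO minus control bar reaches 68.1% raised, whereas in the comparisons of a single agent with control the members' bars are shorter than those of all genes.

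Genes that serve the same pathway were counted from lists, in the main fit only. Other scaling, covariates and left-out libraries were not examined for these genes, nor for the regulators and mitochondrially encoded subunits below. For comparison, 10.7% of all genes were raised and 8.66% lowered in SNX-5422+PAO against control, and 17.8% raised and 16.2% lowered after CEES. Of 17 citrate cycle and pyruvate dehydrogenase genes, 15 were raised in SNX-5422+PAO against control, among them Mdh2 by 0.62 and Dlst by 0.53, and 5 were lowered after CEES. Pdk4, which switches off pyruvate dehydrogenase, fell by 1.38 after CEES and rose by 0.82 after PAO, with mean levels of 172 ± 14.1 CPM in control (SD, n = 3), 305 ± 102 after PAO and 66.0 ± 12.7 after CEES. Of 15 carriers and electron donors, 10 were raised and 1 lowered in SNX-5422+PAO against control. Cytochrome c (Cycs) rose by 0.99 and the muscle mitochondrial creatine kinase Ckmt2 by 1.33. After CEES 4 were lowered and 1 raised: Ckmt2 fell by 0.87 and the adenine nucleotide carrier Slc25a5 rose by 0.39.

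Among 14 regulators of mitochondrial biogenesis, 6 were raised in SNX-5422+PAO against control and 5 lowered after CEES. The coactivator Ppargc1a was at 11.1, 19.2 and 12.8 CPM in control, 9.73, 12.2 and 12.4 in PAO and 55.7, 20.1 and 31.7 in SNX-5422+PAO. Its rise was 1.32 ± 0.27 over control and 1.65 ± 0.28 over PAO (edgeR adjusted p = 0.00342 and 0.00287). In CEES libraries it was at 5.68, 5.71 and 5.35 CPM, a fall of 1.36 ± 0.29 (edgeR adjusted p = 0.0016). Its partner Esrrg rose by 1.57 in SNX-5422+PAO and fell by 1.85 after CEES, and rose by 1.79 from CEES to SNX-5422+CEES. Of 30 other tested assembly factors, 7 were raised in SNX-5422+PAO against control, and 1 was raised and 3 lowered after CEES, both under the shares over all genes.

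The subunits encoded by mitochondrial DNA were counted apart. Of 10 tested, 7 were lowered after CEES (median -0.89) and 6 raised from CEES to SNX-5422+CEES (median 0.68), and 2 raised in SNX-5422+PAO against control. From CEES to SNX-5422+CEES, 3.54% of all genes were raised. Cytochrome b (mt-Cytb) was at 3444 ± 332 CPM in control, 1567 ± 442 in CEES and 2735 ± 378 in SNX-5422+CEES (SD, n = 3), and fell by 1.14 after CEES.

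Summed over members, the share of gene counts was 0.442 ± 0.063% for control (SD, n = 3), 0.452 ± 0.041% for CEES and 0.458 ± 0.034% for PAO. With SNX-5422 it was 0.481 ± 0.044% for CEES and 0.508 ± 0.054% for PAO. The ranges of these groups overlapped. With mitochondrial ribosomal RNA out of the denominator, SNX-5422+PAO libraries (0.561 to 0.647%) lay above the highest library of control (0.552%), PAO (0.538%), CEES (0.515%) and SNX-5422+CEES (0.558%). The make-up varied little: complex V took 40.7 to 41.6% of member counts as group means, complex I subunits 24.7 to 25.5%, complex IV 13.7 to 15.1%, complex III 10.3 to 10.8%, complex II 6.90 to 7.52% and the assembly factors 1.52 to 1.67%. Per kilobase of merged exon (GENCODE M21), Atp5a1 and Atp5b had the highest control levels at 149 and 142 CPM, followed by Cox6b1 at 117. Cox8b (67.1 CPM per kb) and Cox6a2 (58.5) stood near Cox8a (62.0) and Cox6a1 (57.2) in control, and at 36.1 and 28.8 against 60.7 and 55.9 after CEES. The 8 assembly factors had a median of 3.69 CPM per kb, against 14.5 for complex I subunits.

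Exons of 29 members overlap an antisense gene in that annotation, and the strand setting of the counting is not given in the sources used here. Exons of 5 members overlap a gene on the same strand, among them Atp5o, which overlaps another gene entry of the same symbol. The overlap exceeds 20% of exon length for Ndufa13, Ndufb6 and Ndufaf2. Reads shared with processed copies of small subunits were not resolved here, so their values are uncertain.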

How the data were processed

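Total RNA of whole skin was depleted of ribosomal RNA per the labels' protocols. Per the submitters' processing notes, Trim Galore 0.6.7, STAR 2.7.10a, HTSeq 2.0.2 and GRCm39 were used; the annotation release is not given in the sources used here. The authors deposited raw counts per gene, with symbols matched here by Ensembl identifier (52093 of 53700). The 5 summary entries (no feature at 35.2 to 46.9%, ambiguous at 2.08 to 2.53%, not unique at 4.78 to 9.76%) stayed out of tests. The no-feature share was 35.2 to 37.1% in SNX-5422+PAO and 40.7 to 46.9% in control libraries. The not-unique share was 8.03 to 9.76% and 4.78 to 6.65%, so neither share overlapped between these groups. Their part in the results was not tested. No replicate pair agreed within sampling noise.

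edgeR 4.0.16 (R 4.3.3) quasi-likelihood tests used 1 fit of 15 libraries with a mean per group (10 residual degrees of freedom), TMM scaling, filterByExpr and Benjamini-Hochberg adjustment over 22529 genes at 0.05. Isoform ratios (log2, 0.5 counts added) had exact permutation tests. The fit was tested on simulated data. Alternatives covered scaling, filters, DESeq2 1.42.0, covariates and each library left out. The 3 SNX-5422+CEES titles carry the same number, 1, so these libraries were numbered in record order. Members, gene lists and tests were chosen with earlier results of these data known. The named set held the isoform pairs, a set of core subunits and the 3 largest called changes per complex and direction. It also held up to 3 genes per pathway list and direction. Not every called gene of this set is given for each comparison. The results of 1 gene are not reported here.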

Additional observations from a re-analysis of the deposited data

How the results depend on the processing

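The counts of members called moved with scaling and covariates; the causes were not tested. Counts below are raised or lowered of 91 at an adjusted p under 0.05. For PAO minus control, raised members (1) became 0 with total counts, 11 without a filter, 3 with DESeq2, 0 with only the groups compared, 0 with the mitochondrial rRNA covariate and 2 with the muscle covariate, and 0 to 30 with a library left out. Lowered members (1) became 2, 0 and 0 with total counts, no filter and the rRNA covariate, and 0 to 1 with a library left out. For CEES minus control, lowered members (12) became 21 with upper-quartile scaling, 6 with total counts and 0 with the muscle covariate, which raised 36. Leaving out a library gave 6 to 18 lowered and 0 to 1 raised. For SNX-5422+PAO minus PAO, raised members (4) became 0 with total counts, 11 without a filter, 9 with DESeq2, 19 with only the groups compared, 0 with the replicate block, 1 with the rRNA covariate, 0 with the muscle covariate and 0 to 9 with a library left out. For SNX-5422+CEES minus CEES, raised members (7) became 3 with total counts and 0 with the muscle covariate, which lowered 10, and 2 to 7 with a library left out.

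For SNX-5422+PAO minus control, raised members (62) became 9 with total counts, 27 with only the groups compared, 2 with the rRNA covariate and 0 with the muscle covariate, and 20 to 68 with a library left out. Lowered members (0) became 4 with total counts, 1 with upper-quartile scaling, no filter, DESeq2 or the replicate block, and 0 to 1 with a library left out. For SNX-5422+CEES minus control, raised members (1) became 0 with upper-quartile scaling, 2 with total counts, 3 without a filter, 0 with only the groups compared, 0 without mitochondrial rRNA in the table, 28 with the muscle covariate and 0 to 11 with a library left out. Lowered members (1) became 2 with upper-quartile scaling, 1 CPM in 3 libraries, DESeq2 or no mitochondrial rRNA, and 0 to 2 with a library left out. For CEES minus PAO, lowered members (22) became 2 with total counts (3 raised), 38 with only the groups compared, 4 with the rRNA covariate, 0 with the muscle covariate (13 raised) and 8 to 30 with a library left out. For the difference between the SNX-5422 effects, 0 became 1 without a filter, 1 with DESeq2, 12 with the muscle covariate and 0 to 1 with a library left out. Total counts shifted the median over all genes by -0.34 in SNX-5422+PAO minus control, -0.20 in PAO minus control, 0.12 in CEES minus control, -0.13 in SNX-5422+PAO minus PAO and -0.11 in SNX-5422+CEES minus CEES.

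Among named members, 17 log2 fold changes changed sign, in each case with the muscle covariate. For CEES minus control these were Ndufs7 (0.28), Cox8b (0.16) and Cox7a1 (0.67). For SNX-5422+CEES minus CEES they were Atp5j (-0.0400) and Cox7a1 (-0.45), and for SNX-5422+PAO minus control Ndufa2 (-0.0035), Cox4i1 (-0.0412) and Cox7a1 (-0.0039). For CEES minus PAO they were Atp5g1 (0.28), Ndufs7 (0.28), Sdha (0.79), Atp5j (0.19), Cox8b (0.0648), Uqcrc1 (0.56), Ndufa13 (0.31), Uqcrq (0.29) and Cox7a1 (0.84). In each of these comparisons the summed muscle CPM of the groups did not overlap, so the fit reaches beyond levels that they share. With the denominator free of mitochondrial rRNA, the members' share became 0.528% in PAO, 0.601% in SNX-5422+PAO and 0.526% in SNX-5422+CEES, and SNX-5422+PAO no longer overlapped with the other groups. The replicate numbers did not pair libraries (18 pairs, r -0.10 to 0.10, 1 over 0.1), and the 3 SNX-5422+CEES titles carry the same number, 1, so that group was not in the block. Cox4i2 and Cox6b2 had at most 36 counts in a library, and 3 libraries a group limit each call.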
